A study of Mus musculus with 6 samples.

Results

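Round sperm, a haploid male germ cell sample, was set against diploid embryonic stem cells (ESC XX) grown under 2i, which blocks the kinases MEK and GSK3. The comparison took the only library of round sperm and both libraries of ESC XX, which are 3 of the 6 libraries of a mouse study on androgenetic haploid embryonic stem cells. Of the 23889 gene symbols listed in all 3 libraries, 16096 reached 1 TPM in at least 1 of them and were compared. TPM is the deposited FPKM (fragments per kilobase of transcript and M, or mega, fragments) of a library rescaled to a total of 1 M. The libraries thus share a total, but differences between them still depend on the scale, as given below.

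The round sperm library was labelled with the cell type sperm and with an F1 hybrid strain of C57BL/6 and DBA/2. Its label also carries the text on embryo culture and on flow sorting of cells in G0/G1 that the haploid stem cell libraries carry, so how the round sperm were collected is not known from the labels. The ESC XX cells were derived from an Oct-GFP (C57) background and grew in fetal bovine serum with LIF at 1000 U/ml and 2i, on feeder cells that were removed before collection. All 3 libraries came from polyA RNA and a stranded mRNA kit. The strains, the culture and the tables in which the values were deposited differ along with the cell type, and their parts in any difference cannot be told apart. Nothing in the labels says that the ESC XX libraries are separate cultures, so the spread between them may be technical.

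Round spermatids are the haploid products of male meiosis. In the weeks that follow they replace histones by transition proteins and then by protamines, build an acrosome from the Golgi and a tail from the centriole, and shed most of their cytoplasm. The X and Y chromosomes are silenced during male meiosis and stay largely repressed in spermatids, and several X-linked housekeeping genes have autosomal copies, many of them retrogenes, that are transcribed in male germ cells. Embryonic stem cells under 2i and LIF are held in a naive pluripotent state, divide rapidly and depend on a network of transcription factors around Pou5f1, Sox2 and Nanog.

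Markers of each cell type were high in the library labelled with it. The 7 spermatid markers (Prm1, Prm2, Tnp1, Tnp2, Acrv1, Spaca1 and Tssk2) summed to 30248 TPM in round sperm and to 0.856 and 0.579 TPM in the ESC XX libraries. The 5 stem cell markers (Pou5f1, Nanog, Sox2, Esrrb and Zfp42) summed to 19.5 TPM in round sperm and to 2909 and 2865 TPM in ESC XX. Depth, roughly estimated from the steps between low FPKM values, was about 9.75 M fragments in the round sperm library, 14.9 M in the first ESC XX library and 17.1 M in the second. At these depths 1 fragment on a transcript of 1 kb is worth 0.0828 TPM in round sperm and 0.132 and 0.115 TPM in ESC XX, so values near 0.1 TPM rest on a fragment or so. The ESC XX libraries differed by slightly more than fragment sampling alone gives (the median chi-square over its expectation was 1.202 at 10 to 100 fragments and 1.400 at 100 to 1000), and both were kept.

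Gene levels in round sperm and ESC XX were only weakly correlated across the genes kept. Genes are not independent replicates, and across the 16096 genes Pearson's r of log2(TPM + 1) was 0.145 and 0.144 between round sperm and the ESC XX libraries, against 0.996 between the ESC XX libraries. Genes under 1 TPM in all 3 libraries do not enter, so r depends on the filter. Many genes were shared: 10 TPM was reached by 6867 genes in round sperm, by 7859 in both ESC XX libraries and by 3989 in all 3 libraries. A gene was called higher or lower in round sperm when its log2(TPM + 1) lay at least 1 (2-fold) above or below both ESC XX libraries, and as at least 8-fold when it lay at least 3 away. By these rules 5057 genes (31.4%) were at least 2-fold higher and 7103 (44.1%) at least 2-fold lower, whereas 2464 (15.3%) were at least 8-fold higher and 2827 (17.6%) at least 8-fold lower. Only 42 genes (0.261%) differed as much as 2-fold between the ESC XX libraries. With 1 round sperm library there is no replicate check and no test was run. Less RNA per cell and fewer cells of a type cannot be told apart in such bulk samples.

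The balance of higher and lower genes depends on the scale. The median difference over all genes kept was -0.66 on the log2(TPM + 1) scale, and 41.6% of the 2-fold calls were higher. In the FPKM as deposited, which summed to 1239220.0 in round sperm and to 507556 and 507692 in ESC XX, the median was 0.60 and 59.2% of the calls were higher. The genes at least 8-fold higher and lower then numbered 3255 and 1434, and 3049 and 1892 when differences were centred on the median of all genes. Lists of genes are therefore given with their median beside the -0.66 of all genes. Where a value is set against a pair of values, the first is that of round sperm and the pair those of the ESC XX libraries. Differences of genes listed at 0 depend on the 1 added to each value, and no fold is given for them. A gene listed at 0 in both ESC XX libraries could be kept only through round sperm, which fixed its call as higher.

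**Figure D1:**
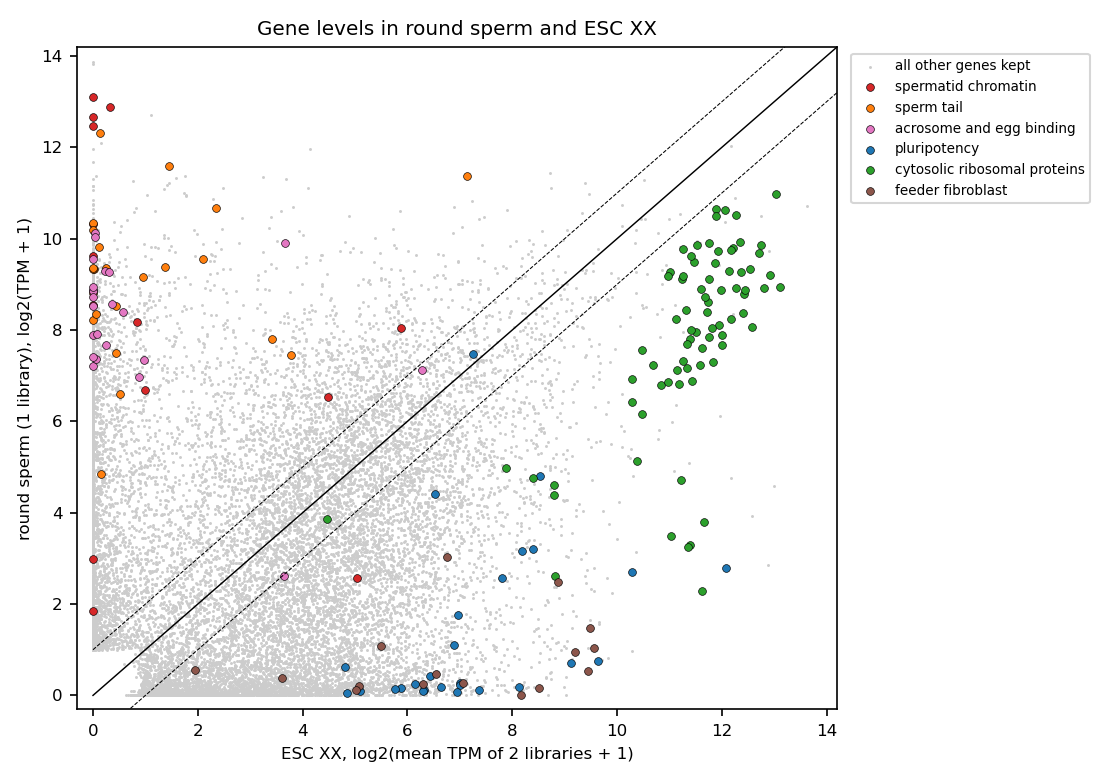
Each point is a gene, with its level in ESC XX (mean of 2 libraries) on the x axis and in round sperm (1 library) on the y axis, both as log2(TPM + 1). The solid line marks equal levels and the dashed lines a 2-fold difference. Members of the lists for spermatid chromatin, the sperm tail and the acrosome lie mostly along the left edge, whereas pluripotency and feeder fibroblast genes lie along the bottom and the ribosomal protein genes far to the right of the lines.

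The genes that package the sperm genome were among the most abundant in round sperm. All 14 members of the list of spermatid chromatin genes were kept, of which 13 were higher and 1 was lower (median difference 7.95). Together they made up 3.17% of the round sperm total and 0.0114% and 0.0111% of the ESC XX totals. Prm1 and Prm2, the protamines, stood at 8745 and 5646 TPM in round sperm, and both were listed at 0 in both ESC XX libraries. The transition protein genes Tnp1 and Tnp2 stood at 7619 and 6479.6 TPM in round sperm, with Tnp1 at 0.493 and 0 TPM in ESC XX and Tnp2 listed at 0 there. Hils1, a spermatid linker histone, reached 1278 TPM, Prm3 789.7 TPM and the linker histone H1fnt 372 TPM, and all 3 were listed at 0 in ESC XX. So no round sperm value of these genes came near an ESC XX value.

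Factors that act on histones before they are exchanged differed by less. Brdt, a testis bromodomain protein that binds acetylated histones, stood at 291 TPM in round sperm and 0.67 and 0.887 TPM in ESC XX (difference 7.36). Chd5, a chromatin remodeller, stood at 102 TPM against 1.05 and 0.94 TPM (difference 5.69). Psme4, the activator of the spermatoproteasome that degrades acetylated histones, and Cdyl, a chromodomain protein, were already present in stem cells and were 4.58-fold and 4.30-fold higher in round sperm. The testis histone genes Hist1h1t and Hist1h2ba were low at 6.96 and 2.59 TPM in these polyA data and listed at 0 in ESC XX. Why they were low was not tested. Rnf8, a ubiquitin ligase for histones, was the 1 lower member at 4.98 TPM against 32.9 and 30.5 TPM.

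All 12 genes on the list of spermatid transcription regulators were higher in round sperm, 9 of them at least 8-fold (median 5.00). The largest differences were those of Gtf2a1l, the germ cell form of a TFIIA subunit, at 545 TPM in round sperm and 0.166 and 0 TPM in ESC XX, and of Spz1, a bHLH-zip factor of the testis, at 1033 TPM against 1.34 and 1.76 TPM. Fhl5, a coactivator of CREM, stood at 291 TPM against 0.129 and 0.113 TPM. Sox30, a testis SOX factor, stood at 124 TPM against 0.169 and 0.148 TPM. Tbpl1, a relative of the TATA-binding protein, was already at 17.0 and 15.7 TPM in ESC XX and at 335 TPM in round sperm. The 6 genes of the testis-specific serine kinase list were all at least 8-fold higher (median 7.87), with Tssk2 at 513 TPM, Tssk1 at 465 TPM and Tssk4 at 302 TPM in round sperm and none of these above 0.112 TPM in ESC XX. Their substrate Tsks stood at 373 TPM against 0.869 and 1.07 TPM.

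Genes of the acrosome and of egg binding were high in round sperm, with 21 of 23 members higher, 1 lower and 1 within 2-fold (median 7.90). Adam3 and Adam5, membrane proteins of the sperm surface, stood at 1118 and 1059 TPM, and neither exceeded 0.0472 TPM in ESC XX. Zpbp2, a zona pellucida binding protein of the acrosome, stood at 751 TPM in round sperm and 0 in both ESC XX libraries, and Acrv1, an acrosomal vesicle protein, at 626 TPM against 0.131 and 0.228 TPM. Of the 23 genes, 9 were listed at 0 in both ESC XX libraries. Agfg1, which takes part in fusion of acrosomal vesicles and was named after its values were seen, was the gene within 2-fold, at 138 TPM against 77.3 and 75.2 TPM. Gopc, a Golgi protein needed for acrosome formation, was lower at 5.13 TPM against 11.4 and 11.8 TPM, a direction that reversed to 0.10 in the FPKM as deposited.

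Every one of the 23 sperm tail genes was at least 8-fold higher in round sperm (median 8.30). They summed to 22562 TPM there and to 178 and 175 TPM in ESC XX. Meig1, needed to build the manchette and tail, stood at 5117 TPM in round sperm and 0 and 0.2 TPM in ESC XX. Oaz3, the testis antizyme, and Odf1, the main protein of the outer dense fibres, stood at 1295 and 1172 TPM and were listed at 0 in ESC XX. Ropn1l, a protein of the fibrous sheath and radial spokes, stood at 3082 TPM against 2.30 and 1.15 TPM. Sperm ion channel and transporter genes followed the same direction in 10 of 11 cases, each at least 8-fold higher (median 6.68). The pore subunits of the CatSper calcium channel, Catsper1 to Catsper4, stood between 186 and 437 TPM in round sperm and at or below 1.04 and 0.705 TPM in the ESC XX libraries. The proton channel Hvcn1 was the exception at 0.151 TPM against 7.04 and 6.65 TPM, a level in round sperm worth few fragments at this depth.

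**Figure D2:**
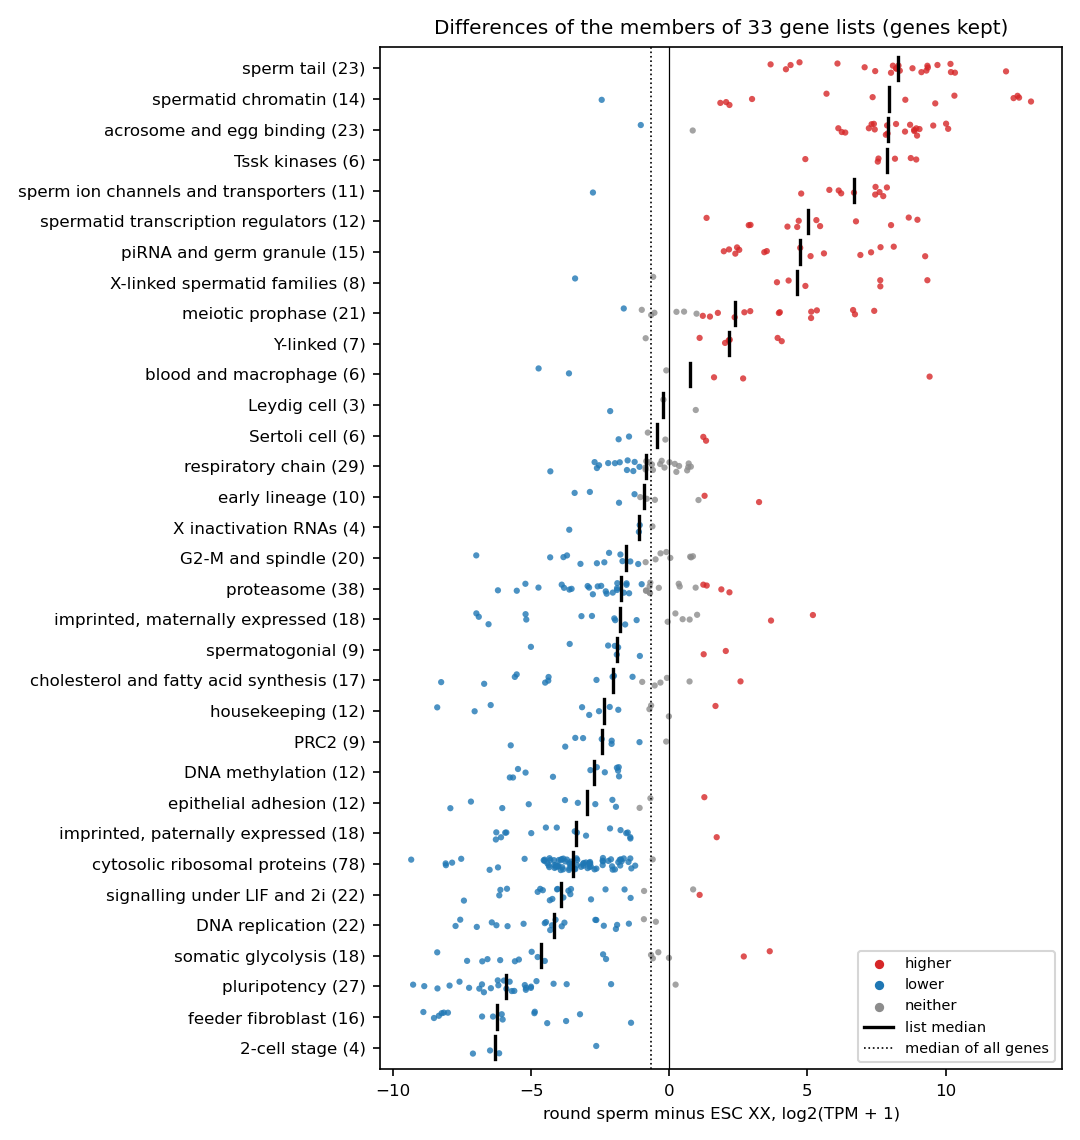
Each point is a gene of 1 of 33 lists, placed by its difference between round sperm and ESC XX on the log2(TPM + 1) scale, and lists are ordered by their median (black bars). The number of genes kept stands beside each name. The 8 lists of spermatid, piRNA and X-linked spermatid genes have medians between 4.62 and 8.30, and the pluripotency, feeder fibroblast and 2-cell lists have medians between -6.33 and -5.90.

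Lists of earlier germ cell programmes had smaller median differences than the spermatid lists above. Of 16 genes for piRNAs, the small RNAs that silence transposons, and for germ granules, 15 were kept and all 15 were higher (median 4.74). Mael, a factor of piRNA biogenesis, stood at 2041 TPM in round sperm and 2.71 and 1.98 TPM in ESC XX. Ybx2, which stores germ cell mRNAs, was the most abundant of the 4 genes with the largest differences, at 2548 TPM against 12.8 and 10.8 TPM, and the RNA helicase gene Ddx25 stood at 786 TPM against 3.67 and 4.32 TPM. Tdrd6, a chromatoid body scaffold, stood at 289 TPM against 0.0173 and 0.0605 TPM. Meiotic prophase genes were higher in 14 of 21 cases, lower in 1 and within 2-fold in 6 (median 2.36). The synaptonemal complex genes Syce3 and Syce1 stood at 348 and 644 TPM in round sperm against at most 5.12 TPM in ESC XX. The meiotic cohesin Smc1b stood at 147 TPM against 0.401 and 0.538 TPM and Sycp2, of the lateral elements, at 43.6 TPM against 0.108 and 0.0943 TPM. Dmc1, the recombinase of early prophase, was lower at 0.917 TPM against 5.70 and 4.42 TPM.

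Markers of other cells of the testis were far lower in round sperm than those of spermatids, and those of spermatocytes were the highest among them. Of the 11 spermatogonial genes 9 were kept, with 7 lower and 2 higher in round sperm (4 and 2 in the FPKM as deposited). Kit, the receptor of differentiating spermatogonia, which ESC XX also express, stood at 1.22 TPM in round sperm and 69.9 and 71.7 TPM in ESC XX and Uchl1 at 7.84 TPM against 113 and 102 TPM. Gfra1, the GDNF receptor of spermatogonial stem cells, was higher at 8.72 TPM against 1.38 and 1.35 TPM and Sohlh1 at 1.37 TPM against 0 in both. The 6 Sertoli markers (Sox9, Wt1, Fshr, Dhh, Cldn11 and Amhr2) summed to 6.11 TPM in round sperm with none above 2.77 TPM, the 4 Leydig markers (Cyp11a1, Cyp17a1, Star and Insl3) to 3.04 TPM, and the 4 blood markers (Ptprc, Hbb-b1, Hba-a1 and Csf1r) to 6.65 TPM. The 5 markers of spermatocytes in meiotic prophase (Sycp1, Sycp3, Hormad1, Spo11 and Dmc1) summed to 175.5 TPM, against 25.2 and 23.7 TPM in ESC XX. Dmc1 among them was lower in round sperm, as given above. In the longer list of blood and macrophage genes Aif1 stood apart at 742 TPM against 0.172 and 0 TPM.

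Many proteins of energy metabolism, translation and transcription have a germ cell form and a somatic form encoded by separate genes, and the pairs changed places between the samples. Of 29 such pairs, the germ cell form was called higher in 25 and lower in 1, and the somatic form was called lower in 22 and higher in 2. In 19 pairs both held at once. The germ cell form made up the larger part of the pair's TPM in 27 of 29 pairs in round sperm and in 1 of 29 in each ESC XX library. Its median share of the pair was 97.1% in round sperm and 0.840% and 0.690% in ESC XX.

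Glycolysis showed the exchange at successive steps. Gapdhs, the glyceraldehyde-3-phosphate dehydrogenase of the sperm tail, stood at 1104 TPM in round sperm and 0 in both ESC XX libraries, and its somatic counterpart Gapdh at 23.1 TPM against 8314 and 8069 TPM. Pgk2, a retrogene for phosphoglycerate kinase, stood at 992 TPM against 0 and 0.0738 TPM, and the X-linked Pgk1 at 5.93 TPM against 755 and 761 TPM. Pdha2 and the X-linked Pdha1, both for the E1 alpha subunit of pyruvate dehydrogenase, stood at 86.4 and 0.145 TPM in round sperm and at 0.824 and 0.623 TPM and 163 and 174 TPM in ESC XX. The lactate dehydrogenase pair behaved otherwise: Ldhc, the sperm form, stood at 6709 TPM against 1.48 and 0.831 TPM, but the somatic form Ldha was as high in round sperm, at 1388 TPM against 1395 and 1411 TPM. Aldolase kept a larger somatic part in round sperm, with the germ cell gene Aldoart1 at 132 TPM and Aldoa at 327 TPM.

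The respiratory chain exchanged subunits too. Cox7b2 made up 99.7% of its pair with the X-linked Cox7b in round sperm and 0.396% and 0.320% in ESC XX. Cox8c stood at 1634 TPM in round sperm and 0.816 and 0.717 TPM in ESC XX and Cox8a at 17.8 TPM against 1090.5 and 1001 TPM. For cytochrome c, which carries electrons to this complex, the testis gene Cyct stood at 144 TPM against 7.64 and 9.80 TPM and the somatic gene Cycs at 4.97 TPM against 92.9 and 96.2 TPM. Cox6b2 was already at 131 and 131 TPM in ESC XX and stood at 1232 TPM in round sperm, where Cox6b1 was at 37.1 TPM. Slc25a31, the germ cell ADP/ATP carrier, stood at 22.5 TPM in round sperm, above the 3.86 TPM of the X-linked Slc25a5 but far below the 729 and 771 TPM of that gene in ESC XX.

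Pairs for chaperones, the cytoskeleton, translation and signalling gave the same picture. Hspa2, the heat shock protein of meiotic and later germ cells, stood at 1204 TPM in round sperm and 8.92 and 9.52 TPM in ESC XX, and its constitutive somatic relative Hspa8 at 25.9 TPM against 4524 and 4696 TPM. Hspa1l and Hspa1a stood at 246 and 0.399 TPM in round sperm, and the tubulin genes Tuba3a and Tuba1b at 1027 and 4.90 TPM, the latter at 880.4 and 910.3 TPM in ESC XX. Rpl10l and Rpl39l, retrogenes of the X-linked ribosomal protein genes Rpl10 and Rpl39, were 4.11-fold and 3.33-fold higher in round sperm. In that library their X-linked counterparts were at 12.9 and 8.55 TPM, against 3217 and 3268 TPM and 2543 and 2672 TPM in ESC XX. The calcineurin genes Ppp3r2 and Ppp3cc were at 398 and 316 TPM in round sperm, cyclin Ccna1 was at 259 TPM against 5.62 TPM for Ccna2, and the centrin pair held 1291 TPM of Cetn1 against 5.87 TPM of the X-linked Cetn2.

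In the other pairs at least 1 member was not called in this way, although the germ cell form was the larger part in round sperm in most of them. Cstf2t, a retrogene for the polyadenylation factor CstF-64, was lower at 9.81 TPM in round sperm and 22.4 and 22.3 TPM in ESC XX, a direction that reversed to 0.09 in the FPKM as deposited. The X-linked Cstf2 stayed within 2-fold at 34.0 TPM against 37.1 and 37.7 TPM. Rbmxl2 was the larger member of its pair with Rbmx in all 3 libraries, at 70.4 TPM against 88.1 and 78.8 TPM. Utp14b, Psma8, Ybx1, Gtf2a1 and Ldha also stayed within 2-fold, as did Gyk, the X-linked glycerol kinase gene, at 4.50 TPM against 5.30 and 5.64 TPM, beside 1037 TPM of its retrogene Gk2 in round sperm. Both members were higher in 2 pairs, those of Tbp with Tbpl1 and of Ppp3ca with Ppp3cc. In the 11 pairs with an X-linked somatic form the median difference of that form was -6.78, and in the 18 pairs with an autosomal somatic form it was -3.20.

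**Figure D3:**
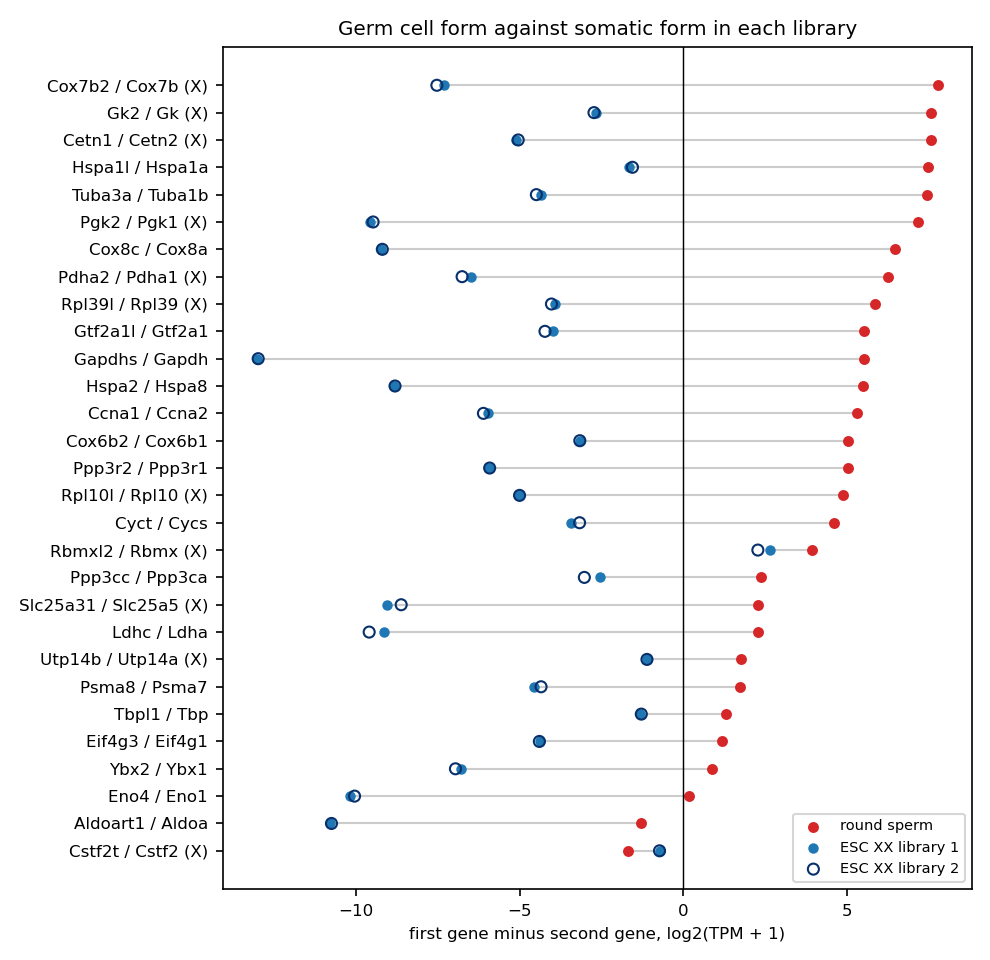
Each row is a pair of a germ cell form and a somatic form, and each point is the log2(TPM + 1) of the first gene minus that of the second in 1 library, in red for round sperm and in blue for the ESC XX libraries. X marks an X-linked somatic form. Red points lie right of 0 in 27 of 29 pairs, whereas blue points lie left of 0 in all pairs but that of Rbmxl2 and Rbmx.

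The upstream sequences of some of these genes are shown for their CG pairs, the sites of DNA methylation in mammals. They are the 150 bases before the first listed start of each gene in RefSeq (GRCm38.p6), 5′ to 3′ on the gene's strand, with CG pairs in capitals. Prm1 and Gapdhs were listed at 0 in ESC XX, Pgk2, Pdha2 and Ldhc are other germ cell forms of the pairs, and Gapdh, Pgk1 and Pdha1 for genes that were at least 8-fold lower in round sperm.
Prm1, chr16:10796824-10796973, minus strand: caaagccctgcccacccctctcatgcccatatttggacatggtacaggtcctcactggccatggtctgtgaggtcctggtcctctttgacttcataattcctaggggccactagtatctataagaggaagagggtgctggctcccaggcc
Gapdhs, chr7:30743682-30743831, minus strand: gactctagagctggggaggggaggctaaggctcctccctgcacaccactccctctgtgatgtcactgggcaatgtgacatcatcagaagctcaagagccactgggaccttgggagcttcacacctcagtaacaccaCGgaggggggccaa
Pgk2, chr17:40208610-40208759, minus strand: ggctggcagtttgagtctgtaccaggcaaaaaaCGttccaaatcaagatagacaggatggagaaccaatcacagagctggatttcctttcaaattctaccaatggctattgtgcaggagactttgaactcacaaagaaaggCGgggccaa
Pdha2, chr3:141212356-141212505, minus strand: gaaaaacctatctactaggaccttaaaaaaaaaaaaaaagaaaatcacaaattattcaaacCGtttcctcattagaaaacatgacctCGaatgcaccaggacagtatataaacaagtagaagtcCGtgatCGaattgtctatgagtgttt
Ldhc, chr7:46861113-46861262, plus strand: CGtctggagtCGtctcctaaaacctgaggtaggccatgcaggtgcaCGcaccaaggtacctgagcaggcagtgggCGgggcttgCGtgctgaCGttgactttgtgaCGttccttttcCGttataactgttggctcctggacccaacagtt
Gapdh, chr6:125165774-125165923, minus strand: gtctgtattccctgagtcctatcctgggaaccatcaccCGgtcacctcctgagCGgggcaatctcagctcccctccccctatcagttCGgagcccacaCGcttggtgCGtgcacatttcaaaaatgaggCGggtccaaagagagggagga
Pgk1, chrX:106186950-106187099, plus strand: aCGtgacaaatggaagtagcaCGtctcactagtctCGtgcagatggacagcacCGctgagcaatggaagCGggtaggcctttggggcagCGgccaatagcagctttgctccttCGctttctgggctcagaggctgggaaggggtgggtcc
Pdha1, chrX:160138431-160138580, minus strand: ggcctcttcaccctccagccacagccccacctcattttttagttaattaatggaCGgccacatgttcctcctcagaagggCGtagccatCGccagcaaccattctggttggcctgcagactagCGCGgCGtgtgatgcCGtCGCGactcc

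Prm1 had no CG pair in this stretch, Gapdhs 1 and Pgk2 2, but Pdha2 had 4 and Ldhc 8, against 6 in Gapdh, 7 in Pgk1 and 9 in Pdha1. So the germ cell genes shown overlapped with the others. Start regions were then counted over the 14361 genes kept that are protein-coding under their current or an unambiguous older symbol and lie outside chromosome 18, of which 82.3% had a start region in the table. The 250 bases upstream held a median of 7 CG pairs in the 1564 genes at least 8-fold higher in round sperm and of 15 in the 2204 genes at least 8-fold lower, against 14 in all 11826 genes. At most 3 CG pairs were found in 34.8% of the former and 7.71% of the latter. The median GC content was 53.6% and 60.4%. The distributions overlapped widely, and 28.3% of the genes at least 8-fold higher had 15 or more CG pairs. Over all 27025 genes in the table, kept or not, the median was 6 CG pairs. Of these, 38.1% had at most 3 CG pairs and 27.5% had 15 or more. The genes at least 8-fold higher were thus poorer in CG pairs than the other genes kept, but not than that whole set. Among the lists with a start region for at least 80% of members, the piRNA genes had a median of 18.5 CG pairs, the spermatid transcription regulators 15, the sperm tail genes 12.5, the spermatid chromatin and Tssk genes 4 each and the X-linked spermatid families 1. Low counts were thus a feature of some spermatid lists and not of others.

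The cyclic AMP response element TGACGTCA, a palindrome bound by CREM, the activator of many spermatid genes, was searched in the same 250 bases. Crem itself, named after its values were seen, stood at 255 TPM in round sperm and 9.79 and 8.95 TPM in ESC XX. The element was found in 43 of 1996 start regions (2.15%) of genes at least 8-fold higher, in 55 of 2760 (1.99%) of genes at least 8-fold lower, in 360 of 14980 (2.403%) of all genes kept and in 1.55% of all 32851 start regions in the table. Its core TGACG, counted on both strands and including the full element, was found in 18.7%, 22.6%, 24.4% and 17.8% of these sets. Genes within 2-fold had both more often, at 3.16% and 28.7%. Neither was more frequent in the genes at least 8-fold higher than in all genes kept. Both sequences contain a CG pair, of which the genes at least 8-fold higher had fewer. The shares were not adjusted for this, so no conclusion on CREM is drawn from them. Over the 6 lists of spermatid chromatin, regulators, acrosome, tail, channels and Tssk genes, the full element was in 1 of 88 start regions, that of Izumo1, and the core in 21 (23.9%). For the pluripotency list the check was void, because only 61.5% of its protein-coding genes had a start region.

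**Figure D4:**
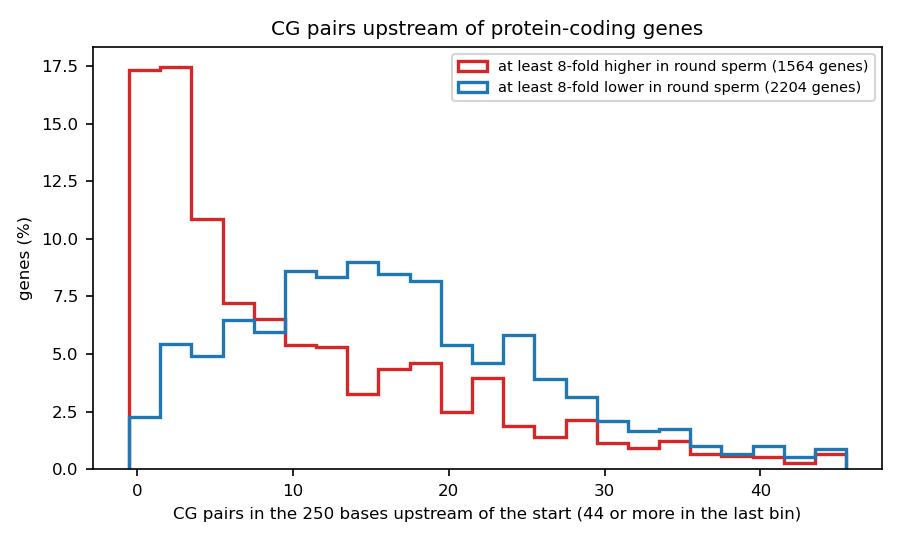
The x axis gives the number of CG pairs in the 250 bases upstream of the start of a protein-coding gene and the y axis the percent of genes in each bin. Genes at least 8-fold higher in round sperm (red, 1564 genes, median 7) are concentrated at low counts, and genes at least 8-fold lower (blue, 2204 genes, median 15) at intermediate counts.

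X-linked genes were lower in round sperm than autosomal genes were. The median difference was -1.45 over 621 X-linked genes and -0.64 over 15381 autosomal genes, and the medians of the autosomes lay between -0.95 (chromosome 8) and -0.07 (chromosome 14). The gap of -0.82 was -0.83 against the first and -0.81 against the second ESC XX library. Among genes averaging 10 TPM or more over the 3 libraries it widened, with medians of -3.16 for 250 X-linked and -0.64 for 9052 autosomal genes. That average holds 1 round sperm and 2 ESC XX libraries, so on X and autosomes alike the cut favours genes high in ESC XX. X-linked genes made up 0.932% of the round sperm total and 2.98% and 3.04% of the ESC XX totals. Without the filter on low values the gap was -0.02, since most of the genes added were at or near 0 in all 3 libraries. The ESC XX cells are diploid and labelled XX, whereas round sperm are haploid, so the number of X copies differs along with the cell type. Its part in the gap was not tested.

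Genes of the X chromosome were spread more widely than those of autosomes, mainly towards lower values. At least 8-fold lower were 26.9% of X-linked and 17.2% of autosomal genes. At least 8-fold higher were 118 of 621 X-linked and 2321 of 15381 autosomal genes. The shares at least 2-fold higher were alike, at 31.4% and 31.3%. Among genes averaging 10 TPM or more they were 23.6% on the X and 31.9% on autosomes. The upper quartile was 1.84 on the X and 1.62 on autosomes together, but 2.18 on chromosome 14. Genes listed at 0 in both ESC XX libraries, whose call as higher was fixed by the filter, are part of these shares. The lowest was the ribosomal protein gene Rps4x at 3.85 TPM in round sperm and 3097 and 3229.9 TPM in ESC XX, and Bex1, named after its values were seen, stood at 0.67 TPM against 560.0 and 558 TPM. The housekeeping enzyme Hprt stood at 0.517 TPM against 197 and 204 TPM. At the other end stood Akap4, the main scaffold of the fibrous sheath, at 648 TPM against 0 in both, and Tsga8, also named after its values were seen, at 573 TPM against 0 and 0.117 TPM.

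Multicopy X-linked families of spermatids were high in part. Of 11 listed genes 8 were kept, of which 6 were higher, 1 was lower and 1 was within 2-fold. Of the 11 genes 7 were listed at 0 in both ESC XX libraries. Such genes could be kept only through round sperm, which fixed their call as higher. Cypt1 and Cypt3, cysteine-rich proteins of the spermatid nucleus, stood at 198 and 198 TPM, and Actrt1 at 29.4 TPM, all listed at 0 in ESC XX. Xlr3a was lower at 0.102 TPM in round sperm and 11.9 and 9.73 TPM in ESC XX. Values of such near-identical copies are uncertain, because how reads that fit several copies were assigned is not given in the sources used here.

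**Figure D5:**
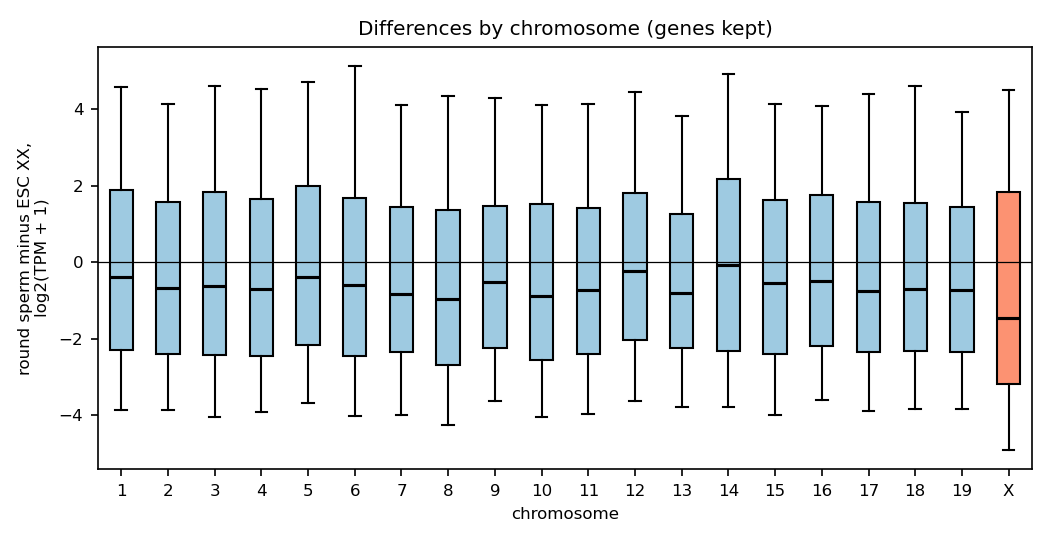
Differences between round sperm and ESC XX on the log2(TPM + 1) scale by chromosome, with boxes from the first to the last quartile, black bars at the median and whiskers from the 10th to the 90th percentile of the genes kept. The X chromosome (orange, 621 genes) has a median of -1.45, below the -0.95 to -0.07 of the autosomes, and the widest box.

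The RNAs of X inactivation were low in both samples. Xist, the RNA that coats the inactive X, stood at 0.0292 TPM in round sperm and 11.5 and 11.9 TPM in ESC XX, and Tsix, its antisense RNA, at 0 TPM against 1.07 and 1.23 TPM. Rlim, an activator of Xist, stood at 14.3 TPM against 30.4 and 31.9 TPM, lower on this scale but with a difference of 0.15 in the FPKM as deposited. Ftx was within 2-fold at 0.824 TPM against 1.48 and 2.14 TPM. Reads from Xist and Tsix, which overlap, cannot be told apart unless strand was used in counting, which is not given in the sources used here.

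Y-linked genes were present at low levels in round sperm. Of 13 listed genes 10 were in the files and 7 were kept, of which 6 were higher. Uba1y, Usp9y, Zfy1 and Zfy2 were listed at 0 in ESC XX, so they could be kept only through round sperm and their call was fixed. Eif2s3y, a translation initiation factor gene, stood at 64.1 TPM in round sperm and 3.16 and 2.63 TPM in ESC XX and Uba1y at 14.1 TPM against 0 in both. Zfy1, Zfy2, Usp9y and Uty stood between 1.66 and 3.55 TPM in round sperm. Ddx3y was within 2-fold, at 0.4 TPM against 1.496 and 1.58 TPM. The libraries labelled XX thus held some Y-linked RNA, whose source was not tested.

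Almost all pluripotency genes were lower in round sperm. All 27 listed genes were kept, 26 were lower and 25 of them at least 8-fold (median -5.90). Pou5f1, the central factor of the network, stood at 5.47 TPM in round sperm and 1268 and 1239.8 TPM in ESC XX. Its partners Nanog and Sox2 were still lower in round sperm, at 0.687 TPM against 791 and 792 TPM and 0.131 TPM against 289.7 and 272 TPM. Dppa5a, an RNA-binding protein of naive cells, had the largest difference at 5.95 TPM against 4239 and 4398 TPM. Other factors of the naive state kept a few TPM in round sperm. Esrrb, a nuclear receptor, stood at 4.98 TPM against 226 and 223 TPM, and Tfcp2l1 at 2.41 TPM against 124 and 124 TPM. Zfp42, a zinc finger marker of stem cells, stood at 8.19 TPM against 334 and 338 TPM and Fbxo15, a target of Pou5f1 and Sox2, at 7.97 TPM against 284 and 294 TPM.

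The rest of the pluripotency list was close to the limit of detection in round sperm. Tdgf1, Sall4, L1td1, Tbx3, Dppa2, Dppa3, Dppa4, Fgf4, Tcl1, Gdf3, Lefty1, Nr0b1, Nr5a2, Prdm14 and Lin28a were at 0.0309 to 0.644 TPM there, and at 26.8 to 560.1 TPM in ESC XX. Utf1 stood at 1.16 TPM in round sperm and 118 and 118 TPM in ESC XX. Round sperm had more RNA of the Krüppel-like factors than of the other members. Klf4 was the gene within 2-fold, at 176 TPM against 151 and 150.4 TPM. Klf5 was 4.49-fold lower at 20.4 TPM against 96.6 and 86.6 TPM, and Klf2 was 13.6-fold lower at 27.1 TPM against 380.2 and 358 TPM.

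Signalling genes that LIF and 2i act on were lower in 19 of 22 cases, 15 of them at least 8-fold (median -3.94). Egr1, an immediate early gene of ERK signalling, stood at 1.24 TPM in round sperm and 395 and 380.4 TPM in ESC XX. Etv5, an ETS factor downstream of ERK, stood at 2.13 TPM against 182 and 185 TPM and the ERK antagonist Spry2 at 0.0785 TPM against 75.7 and 76.5 TPM. Id3, a BMP target, stood at 0.494 TPM against 99.9 and 106 TPM. Lef1, a transcription factor of WNT signalling, was higher at 27.7 TPM against 12.3 and 12.6 TPM. Genes of early lineages were low in both samples, and their median of -0.94 turned to 0.38 in the FPKM as deposited. Otx2, Eomes and T were listed at 0 in round sperm and stood at 10.2 and 9.41 TPM, 6.62 and 6.11 TPM and 2.81 and 2.29 TPM in ESC XX. Sox17, an endoderm factor, was higher at 15.3 TPM against 0.966 and 0.502 TPM and so was Pax6, a neural factor, at 1.97 TPM against 0.2 and 0.26 TPM. Zscan4c, Zscan4d and Zscan4f, near-identical genes of the 2-cell stage whose values are uncertain, were at most 0.091 TPM in round sperm and at 69.7 to 163.2 TPM in ESC XX, and Tdpoz4 was listed at 0 against 5.77 and 4.81 TPM.

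Fibroblast genes stood beside the stem cell genes in ESC XX. All 16 feeder fibroblast genes were lower in round sperm, 15 of them at least 8-fold (median -6.23), and they summed to 18.96 TPM in round sperm against 4385 and 4415 TPM in ESC XX. The collagen genes Col1a1 and Col1a2 stood at 704 and 682 TPM and 362 and 366 TPM in ESC XX, the smooth muscle actin gene Acta2 at 585 and 588 TPM and the intermediate filament gene Vim at 755 and 747 TPM. In round sperm these 4 genes were at 0.12 to 1.04 TPM. The part of these cells in the genes that were lower in round sperm was not tested.

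Genes of DNA replication were lower in round sperm in 20 of 22 cases and within 2-fold in 2 (median -4.19). The helicase subunits Mcm2 and Mcm3 stood at 0.0934 and 0.165 TPM in round sperm and at 233 and 234 TPM and 222 and 221 TPM in ESC XX. The licensing factor Cdt1 stood at 0.0372 TPM in round sperm and 135 and 124 TPM in ESC XX and the thymidine kinase Tk1 at 0.0652 TPM against 90.8 and 90.9 TPM. Genes of G2, M phase and the spindle differed less, with 12 of 20 lower, 8 within 2-fold and none higher (median -1.56). In the FPKM as deposited 7 were lower and 5 higher (median -0.28), and centred on all genes 10 were lower and 3 higher (median -0.89). Cenpa, the centromeric histone, stood at 0.261 TPM against 164 and 155 TPM and the proliferation marker Mki67 at 3.05 TPM against 54.7 and 59.0 TPM. Ccna2 and Cdk1, a cyclin and the kinase it binds, stood at 5.62 TPM against 132 and 129.9 TPM and 8.66 TPM against 124 and 126 TPM. Several genes of the spindle, by contrast, were as high in round sperm as in dividing stem cells. Among them were Aurka, a centrosomal kinase, at 157 TPM against 153 and 153 TPM and Plk1, another mitotic kinase, at 121 TPM against 134 and 128 TPM, both named after their values were seen.

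All 12 genes that write, copy or remove DNA methylation were lower in round sperm (median -2.74), and 9 were in the FPKM as deposited. Dnmt1, which copies methylation at replication, stood at 1.90 TPM in round sperm and 105 and 108 TPM in ESC XX and the de novo enzyme Dnmt3b at 0.225 TPM against 54.7 and 52.8 TPM. The dioxygenases Tet1 and Tet2 were at 0.0799 and 0.0494 TPM in round sperm, against 57.7 and 58.7 TPM and 51.7 and 52.6 TPM in ESC XX. Subunits of Polycomb repressive complex 2, which methylates H3K27, were lower in 8 of 9 cases kept (median -2.45), against 5 lower and 1 higher in the FPKM as deposited. Rbbp7, an X-linked subunit, stood at 2.54 TPM against 183 and 194 TPM and the core subunit Suz12 at 10.9 TPM against 126 and 125 TPM. The accessory subunits Mtf2 and Jarid2, which help to recruit the complex, stood at 8.14 TPM against 121 and 127 TPM and 8.66 TPM against 82.2 and 84.4 TPM. The gene within 2-fold was Ezh2, the catalytic subunit, at 87.1 TPM against 92.3 and 96.7 TPM, which was named after its values were seen.

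Imprinted genes are expressed from the maternal or the paternal copy in somatic cells. In both classes they were lower in round sperm more often than higher, as were all genes kept (44.1% lower and 31.4% higher). Of 21 paternally expressed genes 18 were kept, of which 17 were lower and 1 was higher (median -3.39). Peg10, derived from a retrotransposon, stood at 0.206 TPM in round sperm and 94.0 and 91.9 TPM in ESC XX. The growth factor gene Igf2 stood at 1.23 TPM against 138 and 135 TPM and the zinc finger gene Plagl1 at 0.0292 TPM against 79.2 and 77.4 TPM. Mest stood at 0.0339 TPM against 31.3 and 32.95 TPM, whereas Snrpn, a splicing factor gene, kept 5.204 TPM against 61.1 and 70.6 TPM. Slc38a4, Impact, Ndn, Peg3, Nnat, Sgce, Dlk1, Zrsr1, Snurf, Mkrn3, Nap1l5 and Peg12 were at 0 to 5.21 TPM in round sperm and at 1.46 to 81.0 TPM in ESC XX. Kcnq1ot1 was higher at 3.58 TPM against 0.397 and 0.395 TPM, a long RNA transcribed against Kcnq1, so that its reads cannot be told from those of that gene without strand.

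Of 18 maternally expressed genes kept 11 were lower, 2 higher and 5 within 2-fold (median -1.78), but in the FPKM as deposited 9 of 17 were lower and 7 higher, and centred on all genes 9 of 18 were lower and 5 higher. H19, a long RNA next to Igf2, stood at 1.72 TPM in round sperm and 98.0 and 101 TPM in ESC XX. The long RNAs Meg3 and Rian, of 1 imprinted cluster, stood at 0.18 TPM against 141 and 139.5 TPM and 0.241 TPM against 112 and 118 TPM. The tetraspanin gene Cd81 stood at 1.74 TPM against 358 and 337 TPM and the receptor gene Igf2r at 0.0678 TPM against 37.96 and 37.6 TPM. Grb10, Phlda2, Ppp1r9a, Ascl2, Tssc4 and Zim1 were also lower, at 0 to 9.85 TPM in round sperm. Asb4, an ankyrin repeat protein of ubiquitin ligases, was higher at 46.4 TPM against 0.192 and 0.402 TPM, as was Slc22a18 at 22.1 TPM against 0.902 and 0.709 TPM. Of the 5 genes within 2-fold, the ubiquitin ligase gene Ube3a stood at 31.4 TPM against 18.2 and 18.9 TPM and Commd1 at 182 TPM against 133 and 128 TPM. Mirg, a host RNA of miRNAs, stood at 14.7 TPM against 16.4 and 14.5 TPM and the cell cycle inhibitor gene Cdkn1c at 5.22 TPM against 4.67 and 4.05 TPM. The potassium channel gene Kcnq1 was near the filter at 1.05 TPM against 0.0418 and 0 TPM, so that the added 1 kept it within 2-fold.

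Cytosolic ribosomal protein genes made up the largest measured difference in the make-up of the libraries among the 33 lists. The 78 genes took up 3.42% of the round sperm total and 26.4% and 26.4% of the ESC XX totals, or 34239 TPM against 264461 and 263952 TPM. Of them 77 were lower, 49 at least 8-fold, and 1 was within 2-fold (median -3.50). Those on the X chromosome differed most: Rps4x, Rpl36a, Rpl39 and Rpl10 were at 3.85 to 12.9 TPM in round sperm, with a median difference of -8.10. The 74 autosomal genes had a median of -3.39 and stood at 5.08 to 2026 TPM in round sperm. Among them Rpl14, at 10.2 TPM, came near the X-linked genes with a difference of -7.54. The levels of these genes are uncertain, because many have near-identical pseudogenes.

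Proteasome genes were lower in 24 of 38 cases, higher in 4 and within 2-fold in 10 (median -1.77), against 15 lower and 7 higher in the FPKM as deposited. The subunits of the immune activator PA28, Psme1 and Psme2, stood at 0.383 TPM in round sperm and 98.4 and 104 TPM in ESC XX and at 0.499 TPM against 64.9 and 71.4 TPM. The core subunits Psma7 and Psma2 kept more, at 9.004 TPM against 364 and 376 TPM and 18.5 TPM against 513 and 529.8 TPM. Beside Psme4, the ATPase subunits Psmc3 at 985 TPM against 263 and 270.0 TPM and Psmc2 at 476 TPM against 181 and 191 TPM were higher. So was the core subunit Psma6, named after its values were seen, at 776 TPM against 314 and 347 TPM. Subunits of one complex thus went in both directions.

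In somatic glycolysis 12 of 18 genes were lower and 2 were higher (median -4.64). The glucose transporter Slc2a1 stood at 0.437 TPM in round sperm and 235 and 224 TPM in ESC XX and phosphoglycerate mutase Pgam1 at 9.67 TPM against 1023 and 1027 TPM. The 2 higher genes encode enzymes of the first steps, hexokinase Hk1 at 561 TPM against 44.3 and 44.3 TPM and phosphofructokinase Pfkm at 146 TPM against 21.1 and 22.3 TPM. Nuclear genes of the respiratory chain lay near the bulk of all genes, with 12 of 29 lower, 17 within 2-fold and none higher. Their median of -0.84 lay near the -0.66 of all genes and turned to 0.43 in the FPKM as deposited, where 4 were lower and 9 higher. Cyc1, the cytochrome c1 of complex III, differed most, at 12.7 TPM against 275 and 267 TPM. Sdhc of complex II stood at 21.99 TPM against 146 and 152 TPM, Ndufa10 of complex I at 29.6 TPM against 191 and 184 TPM and Atp5a1 of the ATP synthase at 126 TPM against 739 and 742 TPM, so all 4 kept over 10 TPM in round sperm. Genes of cholesterol and fatty acid synthesis were lower in 11 of 17 cases (median -2.06). The desaturase genes Scd1 and Scd2 stood at 0.016 and 0.296 TPM in round sperm against 106 and 104 TPM and 399.8 and 395 TPM in ESC XX. Fdft1, the squalene synthase, was higher at 415 TPM against 66.8 and 70.9 TPM.

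Epithelial adhesion genes were lower in 9 of 12 cases (median -2.999). E-cadherin (Cdh1) stood at 0.228 TPM in round sperm and 177 and 178 TPM in ESC XX. The integrin genes Itgb1 and Itga6 stood at 0.222 TPM against 296 and 299 TPM and 0.195 TPM against 38.5 and 41.1 TPM. The tight junction genes went both ways, Cldn4 at 0.138 TPM against 75.8 and 73.3 TPM and Cldn3, which was higher, at 21.99 TPM against 9.27 and 7.90 TPM. Genes often used as constant references were not constant here, with 8 of 12 lower, 1 higher and 3 within 2-fold. Beside Gapdh, Ppia stood at 854 TPM against 7631 and 7674 TPM and B2m, the light chain of MHC class I, at 4.18 TPM against 456 and 461 TPM. Tbp was higher at 135 TPM against 44.1 and 39.7 TPM.

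Among the 10 genes with the largest positive differences were 4 short RNAs and 4 of the chromatin genes above. They were Mir6236, Mir762, Prm1, Tnp2, Tnp1, Prm2, Meig1, Snord37, Fabp9 and Scarna17. Mir6236 and Mir762 stood at 15072 and 14479 TPM in round sperm and were listed at 0 in ESC XX, and Fabp9, a fatty acid binding protein of the testis, stood at 4363 TPM in round sperm and 0 and 0.226 TPM in ESC XX. All 50 miRNA genes kept were higher, but since each was listed at 0 in ESC XX they could be kept only through round sperm. Genes under 200 nt made up 6.26% of the round sperm total and 0.00292% and 0.100% of the ESC XX totals. FPKM divides fragments by a short length for such genes, and polyA libraries are not made to measure them, so their levels are uncertain. The 10 lowest were Ftl1, Rps4x, Tubb5, Dppa5a, Ckb, Atp6v0c, Ifitm2, Col1a1, Nanog and Spp1. Ftl1, the ferritin light chain, stood at 6.27 TPM against 7645 and 7399.9 TPM and the tubulin gene Tubb5 at 0.969 TPM against 1274 and 1233 TPM. Creatine kinase Ckb stood at 0.754 TPM against 929 and 886 TPM, and Atp6v0c, a subunit of a proton pump, at 0.00432 TPM against 534 and 503 TPM. The round sperm value of Atp6v0c is far below the 0.0828 TPM of 1 fragment on 1 kb, so it is uncertain. Ifitm2 was at 0.699 TPM against 858 and 825 TPM and Spp1, the matrix protein osteopontin, at 0.669 TPM against 755 and 770.0 TPM.

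Genes detected in only 1 of the samples were more numerous on the germ cell side. In round sperm 1001 genes reached 10 TPM while staying under 0.1 TPM in both ESC XX libraries, and 458 genes showed the reverse. At least 500 TPM in round sperm with 0 listed in both ESC XX libraries was reached by 84 genes. Of these 22 were miRNA, snoRNA or guide RNA genes, whose levels are uncertain. Among the others were Spata4 at 2535 TPM, Smcp, a protein of the mitochondrial capsule, at 1618 TPM, Spata19 at 1105 TPM and the chromatin protein Hmgb4 at 949.8 TPM. Only Snora21, a small nucleolar RNA, was listed at 0 in round sperm and above 500 TPM in an ESC XX library, at 0 and 816 TPM in the 2 libraries, so its value in 1 library alone put it there. Of the long noncoding RNAs kept, 714 of 935 (76.4%) were higher and 97 (10.4%) lower. The shares were 27.4% and 47.2% of 13847 genes that are protein-coding under their current symbol. Genes listed at 0 in both ESC XX libraries could be kept only through round sperm and had to be called higher. The shares therefore depend on the filter, and no conclusion on the classes is drawn from them. Long noncoding RNAs took up 3.45% of the round sperm total and 0.473% and 0.488% of the ESC XX totals.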

How the data were processed

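RNA was measured by polyA sequencing in round sperm (1 library) and ESC XX (2 libraries). Per the labels, a stranded mRNA kit was used, and per the submitters' processing notes the reads were processed with TopHat2 2.0.13 and Cuffdiff 2.2.1 on mm9, whose settings the sources used here do not give. The values are deposited as FPKM per gene symbol. The header of the round sperm table does not name its unit, which was read as FPKM from the tool in those notes and from the values, and the tables of round sperm and ESC XX were normalized separately.

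Each library was rescaled to the same total over the 23889 shared symbols (TPM), genes with at least 1 TPM in any library were kept, and differences were taken between log2(TPM + 1) in round sperm and the mean of both ESC XX libraries. With 1 round sperm library no test was run. Calls need at least 2-fold (or 8-fold) against each ESC XX library. This is a bound of size, with no error for round sperm. FPKM carry no counts. Depth was estimated from the steps between low values of 5330 genes with 1 transcript, and no counting interval is given.

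The members, the 33 gene lists and the 29 pairs were chosen with earlier results of these data known. Genes named are the 10 highest and 10 lowest differences, in each list the 4 members with the largest difference and up to 3 called against the list's median, all members of 6 lists (spermatid chromatin, pluripotency, imprinted of both kinds, X inactivation and Y-linked), the genes of the pairs, and genes of at least 500 TPM on 1 side and listed at 0 on the other. Other genes are said to be named after their values were seen. Some genes that this rule takes are not reported here. Chromosomes were matched for 99.4% of symbols, and start regions are those of RefSeq on GRCm38.p6, used only for sequence and for its coordinates. The alternatives were other scalings, an added value of 0.1, no filter or one of 5, and leaving out either ESC XX library. Python 3.11.15, pandas 2.3.3, numpy 2.4.6 and scipy 1.17.1 were used.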

Additional observations from a re-analysis of the deposited data

How the results depend on the processing

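The counts of genes at least 2-fold higher (4171 to 6949) and lower (4799 to 7666) stayed within 1.5 times those given under all 10 alternatives, and no 2-fold call turned direction in any of them. The 8-fold counts moved more, to 3255 higher and 1434 lower in the FPKM as deposited and 3393 and 4483 with 0.1 added. The median difference of all genes, -0.66 as reported, reversed to 0.60 in the FPKM as deposited, and was 0.00 by construction when centred and 0.00 without a filter. It was -0.39 after quantile normalization, -0.77 without the 50 most abundant genes of each library in the total, -0.60 without genes under 200 nt, -0.80 with 0.1 added and -0.73 with a filter of 5. Leaving out either ESC XX library gave a median between -0.66 and -0.65. The X chromosome's median minus that of autosomes was -1.25 in the FPKM as deposited, -0.83 after quantile normalization, -0.73 without the 50 most abundant genes, -0.83 without genes under 200 nt, -1.69 with 0.1 added, -1.60 with a filter of 5 and -0.0181 with no filter, against -0.82 as reported. It was between -0.83 and -0.81 without either ESC XX library. In the FPKM as deposited the X inactivation list reversed to 0.0802, Cstf2t to 0.0925, Gopc to 0.10 and Rlim to 0.15, and no other named gene called at 2-fold, and no other list with a median beyond 2-fold, reversed in any alternative. The cause was not tested. No paired analysis was possible because round sperm had 1 library.

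Depth limits genes near 0.1 TPM, where 1 fragment on 1 kb is worth as much, and a value listed at 0 can be a failed estimate.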

Other observations

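Families of genes that share the start of a symbol, chosen after their values were seen, went in different directions. Serine protease genes of the Prss family were split, with 19 of 25 higher in round sperm and 6 lower, beside 31.4% and 44.1% of all genes kept. Prss39, Prss46, Prss54 and Prss21 stood at 694, 262, 249.1 and 173 TPM in round sperm and at most 0.872 TPM in ESC XX. Prss23 was lower, at 3.57 TPM in round sperm and 128 and 127 TPM in ESC XX. Of 34 genes with a Cep symbol, mostly centrosome genes, 21 were higher and 6 were lower, with Cep63 at 543 TPM in round sperm and 7.63 and 8.10 TPM in ESC XX and Cep112 at 228 TPM against 1.95 and 2.04 TPM.

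Of 17 genes with a Pex symbol, most of which build peroxisomes, 9 were higher and 7 (41.2%) were lower, the latter close to the share of all genes. Pex11g stood at 101 TPM in round sperm and 3.03 and 2.32 TPM in ESC XX, whereas Pex7, an import receptor, stood at 0.917 TPM against 29.0 and 29.2 TPM. RNA polymerase subunit genes (Polr) were lower in 21 of 28 cases with 1 higher.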
